A study of Mus musculus with 48 samples.

Results

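The stretch of the mouse Igκ locus between the last Vκ gene, Igkv3-1, and the first joining segment, Jκ1, was examined as a recombination partner of breaks at Jκ1. In every library, junctions on chromosome 6 from position 70654501 to 70672055 (chr6:70654501-70672055, build mm9) were taken, a region of 17555 bp that starts 329 bp after the annotated end of Igkv3-1 and stops 500 bp before the Jκ1 break. It is known to hold the regulatory elements Cer and Sis, neither of which was placed by coordinates here, and no gene is annotated inside it in GENCODE vM1. Of 8250887 junctions in 48 libraries, 66722 lay in this interval (0.809%). These reduced to 5129 distinct junctions when those with the same prey position, strand, bait end and overlap were counted once within a library. By comparison, 7162944 junctions lay within 200 bp of 138 Vκ break sites.

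Junctions had been mapped by HTGTS-JoinT-seq, which amplifies outward from a fixed bait end and reads the sequence (the prey) to which that end was joined. Both ends of the break served as bait, the Jκ1 coding end (CE) and the Jκ1 signal end (SE), in 2 lines of vAbl cells, which are mouse progenitor B cells transformed by the Abelson kinase. Each genotype was a single clone, WT (clone B) or Ku70-/- (clone B1), the latter lacking a core subunit of the nonhomologous end joining (NHEJ) machinery after Cas9 deletion. Cells were left cycling or held for 96 h in 3 µM STI-571, an Abl kinase inhibitor that arrests them in G0-G1 and switches on RAG cutting, with DMSO, with 5 µM L67 (an inhibitor of DNA ligases I and III) or with 25 µM L82-G17 (an inhibitor of DNA ligase I). Each of the 16 groups held 3 libraries, every library was scaled to 500000 read pairs by the authors, and recovered junctions ranged from 8294 to 385847 per library. The Ku70-/- DMSO replicate 1 of both baits does not appear in the study's tables of libraries that were read, and it stood apart here. Values without it are given beside the results it moves most, and in the closing ranges where a sign or call changed.

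V(D)J recombination is started by the RAG1/2 endonuclease, which cuts between a coding segment and its recombination signal sequence (RSS). An RSS is a heptamer, consensus CACAGTG, and a nonamer, consensus ACAAAAACC, held apart by a spacer of 12 or 23 bp, and the first 3 bases CAC are the part that RAG needs most. RAG bound at Jκ1 can also cut sequences that only resemble an RSS, known as cryptic RSSs. In the interval, Cer and Sis bind CTCF and are known to restrain joining of Jκ to the nearest Vκ genes. Cut ends leave as a coding pair and a signal pair, and NHEJ with Ku70 seals each pair with little loss of sequence, while ends joined without Ku are often resected first.

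The 9 cut sites with the most WT DMSO junctions are shown first because later results refer to them, followed by the 0.79 kb site, which was less used than some sites not shown and was added as the most used one in inversion orientation. Each line gives 12 bases of the coding side in lower case, the heptamer in capitals, a 12 bp spacer in lower case and the nonamer position in capitals, 5′ to 3′, with the distance upstream of the Jκ1 break. The Vκ 12RSS of Igkv3-1 and the 23RSS of Jκ1 are added as the true signals for comparison.
5.45 kb, chr6:70667097-70667136, + strand: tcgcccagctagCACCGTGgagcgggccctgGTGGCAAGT
5.09 kb, chr6:70667452-70667491, + strand: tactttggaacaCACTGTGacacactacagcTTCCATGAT
8.01 kb, chr6:70664537-70664576, + strand: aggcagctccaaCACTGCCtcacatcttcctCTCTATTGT
3.72 kb, chr6:70668826-70668865, + strand: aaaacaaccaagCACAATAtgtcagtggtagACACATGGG
6.52 kb, chr6:70666028-70666067, + strand: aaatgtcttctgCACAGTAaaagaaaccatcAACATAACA
2.75 kb, chr6:70669790-70669829, + strand: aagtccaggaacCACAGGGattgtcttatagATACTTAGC
3.57 kb, chr6:70668970-70669009, + strand: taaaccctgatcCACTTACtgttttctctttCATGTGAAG
8.26 kb, chr6:70664289-70664328, + strand: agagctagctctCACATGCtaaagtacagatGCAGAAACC
2.04 kb, chr6:70670505-70670544, + strand: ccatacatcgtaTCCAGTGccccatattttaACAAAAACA
0.79 kb, chr6:70671738-70671777, − strand: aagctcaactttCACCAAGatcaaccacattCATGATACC
Igkv3-1, chr6:70654160-70654199, + strand: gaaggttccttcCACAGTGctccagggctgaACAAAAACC
Jκ1, chr6:70672517-70672567, − strand: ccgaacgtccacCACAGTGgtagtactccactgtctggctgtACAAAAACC

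In WT cells the interval junctions were piled at single positions next to such sequences. A pileup was a position and strand with at least 10 junctions from at least 2 libraries, pooled over the STI-571 libraries of a bait, and highest within 50 bp. Of 29 SE bait pileups made mostly of WT junctions, 23 lay next to a CAC within 1 bp (79.3%), and of 25 such CE bait pileups 16 did (64.0%), where 10.5% of all positions in the interval lie next to a CAC in either orientation. The SE pileup of the 6.52 kb site was counted as not next to a CAC, since it lay 2 bases before it. Within 10 bp of the 27 listed sites in deletion orientation lay 1988, 1753 and 1639 of the deletion-oriented CE junctions of the 3 WT DMSO libraries, or 92.4%, 93.5% and 95.0%. From the SE bait the shares were 91.7%, 88.3% and 91.4%. These stretches cover 3.17% of the interval, and since the sites were listed from pileups in these same libraries the shares are a description.

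**Figure D1:**
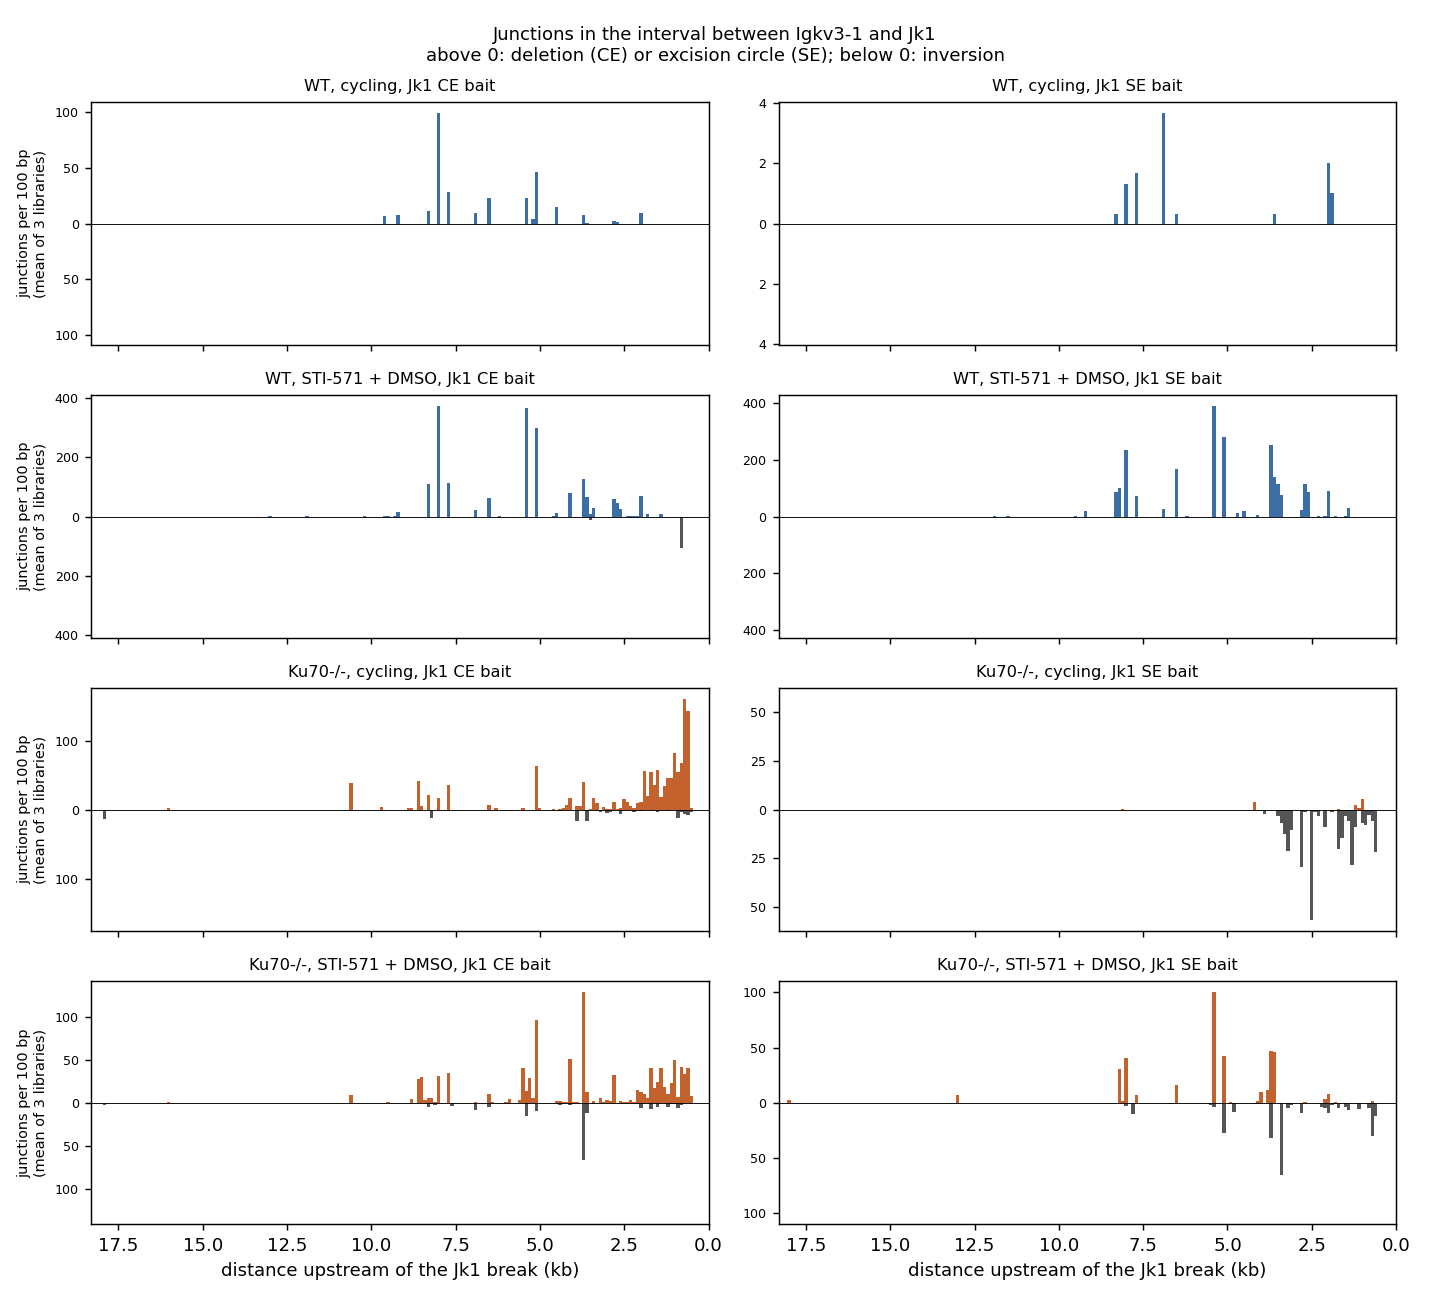
Mean junctions per 100 bp (vertical axis, 3 libraries a group) by distance upstream of the Jκ1 break in kb (horizontal axis) for cycling and STI-571 + DMSO libraries of both genotypes and baits. Bars above 0 are deletions (CE bait) or excision circles (SE bait), bars below 0 are inversion-oriented joints, and each panel has its own scale. WT junctions stand in narrow peaks between about 1 and 9 kb, while Ku70-/- CE junctions are more spread and, in cycling cells, gather next to Jκ1 from both baits.

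In the WT DMSO libraries of both baits together the 5.45 kb site, with heptamer CACCGTG, held the most junctions. Over all STI-571 WT libraries the CE totals were 2766 at this site, 3393 at 5.09 kb and 3581 at 8.01 kb. With DMSO the 5.45 kb site held 421, 353 and 319 CE junctions and 515, 255 and 396 SE junctions in the WT DMSO libraries. The 5.09 kb site (CACTGTG) held 320, 340 and 234 CE and 371, 238 and 233 SE junctions. At the 8.01 kb site (CACTGCC) the counts were 353, 280 and 384 for CE and 124, 250 and 151 for SE. CE and SE counts overlapped at the 5.45 and 5.09 kb sites, while at the 8.01 kb site CE counts were all above SE counts, and in the first SE library the 3 sites ranged from 124 to 515. The 3.72 kb site (CACAATA) was lower from the CE bait, at 159, 67 and 146, than from the SE bait, at 314, 298 and 137, although these ranges overlap. At the 6.52 kb site (CACAGTA) the counts were 81, 70 and 40 for CE and 239, 50 and 212 for SE. Over the 27 sites in deletion orientation the mean WT DMSO counts from both baits ranked alike (Spearman's rho 0.84 across sites, given as a description, since each cut event can yield both joints).

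Few of these sites looked like a full RSS. In the interval 6 words matched CACAGTG in all 7 bases, and none of them held a WT SE junction in the STI-571 libraries (0 junctions). Of these, 5 lie in the part farther from Jκ1 and the other on the − strand, where few CAC words of any kind were used. That − strand word is the 5.09 kb heptamer CACTGTG read on the other strand, so its 0 covers only breaks at the opposite end. At the nonamer position the 5.45 kb site matched 2 of 9 consensus bases, the 5.09 kb and 8.01 kb sites 1 each, and the 8.26 kb site 7. Sites with more matching nonamer bases were not used more (rho −0.09 across the 27 sites, a description). The 2.04 kb site went the other way. It has no CAC, its heptamer position reads TCCAGTG, and its nonamer matches 8 of 9 bases after a 12 bp spacer, a level reached by 9 words on the + strand of the interval. It held 66, 77 and 70 CE junctions and 35, 113 and 123 SE junctions in the WT DMSO libraries, and 97.1% of those SE joints were direct.

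Orientation and place separated used from unused CAC words. The + strand orientation, which puts a site in the same direction as a Vκ gene whose joining deletes the intervening DNA, had 322 CAC words in the interval, and 31 of these held at least 10 WT SE junctions from 2 or more STI-571 libraries (9.63%, words overlapping in CA repeats counted separately). In the opposite orientation 1 of 354 words did (0.282%) by the same SE count. The CE bait saw more there, with 603, 107 and 57 junctions over the STI-571 WT libraries at the words 0.79, 3.47 and 2.30 kb upstream, against 30, 7 and 8 from the SE bait. In the 8778 bp farthest from Jκ1 1 of 155 + strand words was used (0.645%), against 30 of 167 in the nearer 8777 bp (17.96%). Used words in the nearer part carried CACA at 20 of 30 places, against 65 of 137 for unused ones, and matched 2.90 ± 1.30 nonamer bases (SD, n = 30), against 2.34 ± 1.45 (SD, n = 137). These values describe the words and were not tested.

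The far part held few junctions in either genotype. Of 6128 CE and 7119 SE junctions in WT DMSO libraries, 32 and 20 lay more than 9.28 kb from the break. The WT L67 SE libraries had more, 117 of 8089, and WT cycling CE libraries had 20 of 885 (2.26%), all in replicate 2. Ku70-/- DMSO libraries had 43 of 3563 and 28 of 1916 there, and Ku70-/- cycling CE libraries 178 of 4299 (4.14%). In 100-base windows taken every 20 bp, all windows of the kilobases centred from 9.56 to 13.6 kb mapped back uniquely. Farther out the unique share was 18%, 74%, 100% and 88% at 14.6, 15.6, 16.6 and 17.6 kb. The part of mapping in the low counts was not tested. A search for the core CTCF consensus on both strands, with up to 1 mismatch, found 2 matches, both on the − strand, at chr6:70659462-70659475 and chr6:70659869-70659882, 13.1 and 12.7 kb from the break. These were not matched to Cer or Sis. Of 8335 windows of the same length on chromosome 6, 33.1% hold at least 1 such match and 7.62% at least 2. No WT DMSO junction of either bait lay beyond the farther match, while WT L67 SE libraries had 45, WT L82-G17 CE libraries 3, and Ku70-/- DMSO libraries 11 CE and 8 SE junctions there.

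The most used site in inversion orientation lay at 0.79 kb. Its heptamer, CACCAAG, faces Jκ1 the other way, and its CE joints are inversions. It held 84, 161 and 61 CE junctions in the WT DMSO libraries but 0, 0 and 2 SE junctions, so the baits did not overlap. None were seen in the WT cycling libraries of either bait, and Ku70-/- DMSO CE libraries had none at it. The inversion-oriented 3.47 kb site had the same split at lower counts, with 6, 22 and 1 CE and 0, 0 and 0 SE junctions in the WT DMSO libraries.

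Per 500000 read pairs, arrested WT cells had many more interval junctions than cycling ones, while the Ku70-/- counts of both states overlapped. From the CE bait WT cycling libraries had 248, 253 and 384 interval junctions per 500000 read pairs and WT DMSO libraries 2254, 2064 and 1810, with no overlap. The log2 difference, on log2(junctions + 1), was 2.81 ± 0.22 (SE), or 7.02-fold, with an exact two-sided permutation p = 0.1 over 3 against 3 libraries and adjusted p = 0.2 over 18 count comparisons. With 3 libraries a group 0.1 is the smallest p possible, so no single comparison can pass 0.05. The libraries are called replicates by the labels alone, and the p-values measure the spread between libraries of 1 clone. From the SE bait WT counts went from 1, 16 and 15 to 2454, 2258 and 2407, and again did not overlap (log2 difference 8.18 ± 1.02 SE, exact permutation p = 0.1). Relative to everything recovered, the CE order turned, with 1.09%, 0.834% and 1.20% in cycling libraries and 0.584%, 0.558% and 0.489% with DMSO. The SE difference kept its sign at a smaller size, 4.71 per recovered junction, 4.54 per Vκ junction and 3.74 with distinct junctions counted once (exact permutation p = 0.1 each).

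Ku70-/- cycling cells already held many. Their CE counts were 1335, 1190 and 1774, all above the cycling WT counts (log2 difference 2.29 ± 0.27 SE, 4.88-fold, exact permutation p = 0.1, adjusted p = 0.2). Without 1000 bp at both ends of the interval these counts were 562, 570 and 1041, beside 248, 253 and 384 in cycling WT. The untrimmed counts were 9.16%, 9.68% and 12.95% of the junctions in those Ku70-/- libraries. With DMSO the CE counts were 707, 1675 and 1181, of which 707 was the library absent from the tables, and they overlap the cycling ones (log2 difference −0.34 ± 0.40 SE, exact permutation p = 0.4, and −0.0062 without that library). The SE counts were 240, 364 and 292 when cycling and 6, 745 and 1165 with DMSO. The SE log2 difference was −0.69 ± 2.37 (SE, exact permutation p = 1), and without the library with 6 junctions it was 1.66. Relative to recovered junctions the Ku70-/- states did not overlap, at 0.531%, 1.09% and 0.786% with DMSO for CE, and for SE at 1.75%, 4.39% and 2.68% when cycling and 0.0034%, 0.396% and 0.606% with DMSO. These log2 differences of DMSO against cycling were −3.77 for CE and −4.85 for SE, and per Vκ junction −4.61 and −6.24 (exact permutation p = 0.1 each). The estimated effect of arrest on the CE count differed between genotypes by −3.15 on the log2 scale (exact two-sided permutation of treatment labels within genotype, p = 0.02, adjusted p = 0.04 over 2 baits), and that on the SE count by −8.88 (exact permutation p = 0.05, adjusted p = 0.05). This permutation is exact for no effect of arrest in either genotype, not for equal effects in both. The adjustment left out the inhibitor tests of the same kind, and with them in the same adjustment the CE call would not pass 0.05. The CE call was lost with distinct junctions counted once, with both ends trimmed by 1000 bp, and per recovered or per Vκ junction, where exact permutation p was 0.05, 0.08, 0.1 and 0.1.

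With DMSO, WT and Ku70-/- counts did not overlap. The CE difference was −0.86 ± 0.37 on the log2 scale (SE, exact permutation p = 0.1, adjusted p = 0.2) and the SE difference −3.70 ± 2.36 (SE, exact permutation p = 0.1, adjusted p = 0.2). Both values lean on the Ku70-/- DMSO replicate 1, and without it the differences were −0.53 for CE and −1.35 for SE. With distinct junctions counted once the SE counts overlapped, at 53, 47 and 54 in WT and 5, 68 and 82 in Ku70-/- (log2 difference −0.68, exact permutation p = 1), where both other Ku70-/- libraries lay above all WT ones, and the CE difference was −1.60 (exact permutation p = 0.1). The distinct CE counts were 219, 209 and 230 in WT and 14, 177 and 143 in Ku70-/-, and without replicate 1 the distinct-junction differences were −0.46 for CE and 0.53 for SE. Relative to recovered junctions this CE order turned too, with 0.544% ± 0.049 (SD, n = 3) in WT and 0.802% ± 0.280 (SD, n = 3) in Ku70-/-. In WT DMSO libraries the SE counts, 2373 ± 102, all lay above the CE counts, 2043 ± 223 (SD, n = 3 each, log2 difference 0.22 ± 0.10 SE, exact permutation p = 0.1, adjusted p = 0.2). Junctions per distinct junction did not match between the baits, at 9.35 ± 1.30 for CE and 46.3 ± 1.7 for SE (SD, n = 3 each). With distinct junctions counted once the log2 difference of SE against CE was −2.08. Separate joints with the same ends and overlap count as 1 distinct junction, so these ratios cannot be read as copies per joint.

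**Figure D2:**
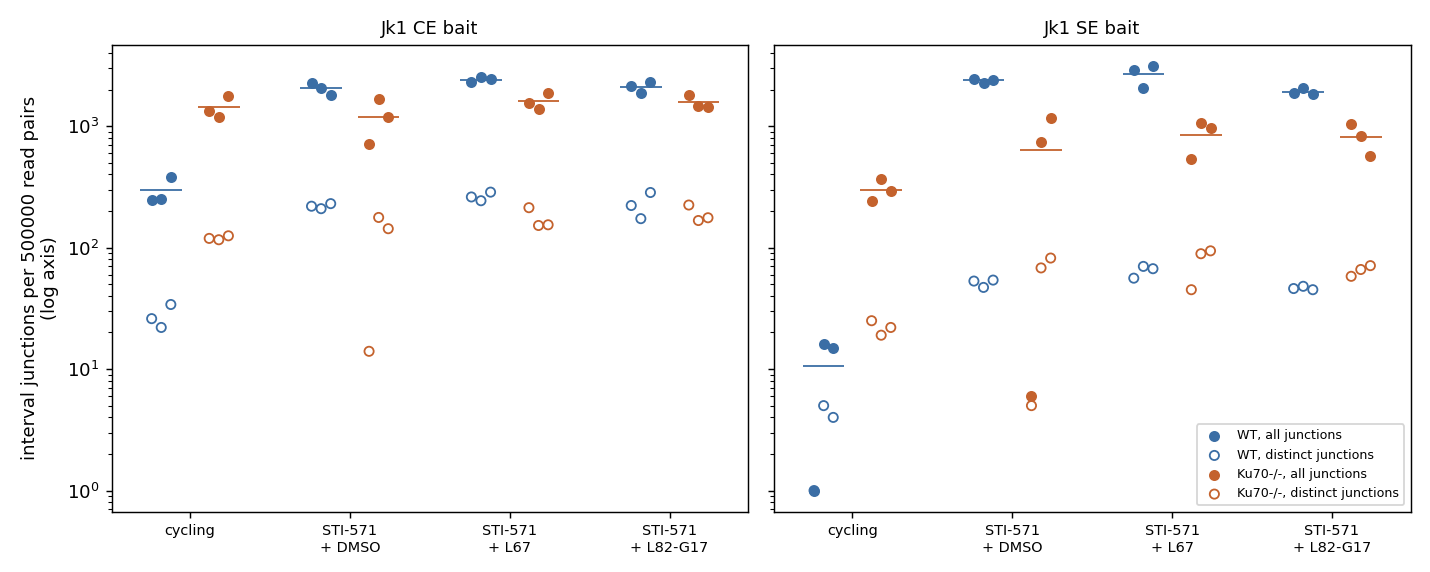
Interval junctions per 500000 read pairs (log axis) in each of 48 libraries, by treatment and genotype, for the CE bait (left) and SE bait (right). Filled points are all junctions, open points are distinct junctions and lines are group means. WT CE counts sit between 248 and 384 when cycling and between 1810 and 2254 with DMSO, and the Ku70-/- DMSO SE library with 6 junctions lies far below the other two.

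From the CE bait a smaller share of Ku70-/- than of WT junctions lay at the listed sites, while the SE libraries of Ku70-/- cells varied widely. Within 10 bp of the deletion-oriented sites lay 143, 227 and 151 of the deletion-oriented CE junctions with DMSO (29.0%, 15.3% and 14.5%). From the SE bait they were 0 of 3, 299 of 516 and 506 of 615 (0%, 57.95% and 82.3%), where the first is the library absent from the tables. The share of all interval junctions within 10 bp of a pileup next to a CAC was 75.9% ± 3.1 in WT and 15.2% ± 4.5 in Ku70-/- from the CE bait (SD, n = 3 each). For the SE bait the WT share was 75.2% ± 1.3 and the Ku70-/- share 33.0% ± 29.5 (SD, n = 3 each), or 49.4% ± 10.7 over the other 2 libraries. Pileups were called on pools to which WT gave most junctions, so these shares are a description. For both baits the exact permutation p was 0.1 (adjusted p = 0.375 over 30 share comparisons), and no conclusion is drawn from it. Of 35 CE pileups made mostly of Ku70-/- junctions 3 lay next to a CAC (8.57%), and of 15 such SE pileups 2 did (13.3%). By junctions these were 159 of 2769 for CE and 421 of 1212 for SE. A pileup was given to the genotype with more junctions in it, so a site used more by WT counts with WT, and these shares do not describe all Ku70-/- junctions.

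The main sites were ranked by counts that WT libraries dominate, so the Ku70-/- values there are a description. At the 8.01 kb site the counts with DMSO were 0, 46 and 31 for CE and 0, 26 and 90 for SE. The 5.45 kb site held 0, 41 and 0 CE and 0, 103 and 145 SE junctions. At the 5.09 kb site they were 0, 18 and 10 for CE and 0, 14 and 109 for SE. Every zero in first place belongs to the library absent from the tables, and in all 6 of these sets the highest Ku70-/- library stayed below the lowest WT one. The 4.09 kb site (CACAGCC) was different, with 143, 0 and 7 CE junctions in Ku70-/- and 51, 96 and 94 in WT, where 143 came from that same library.

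**Figure D3:**
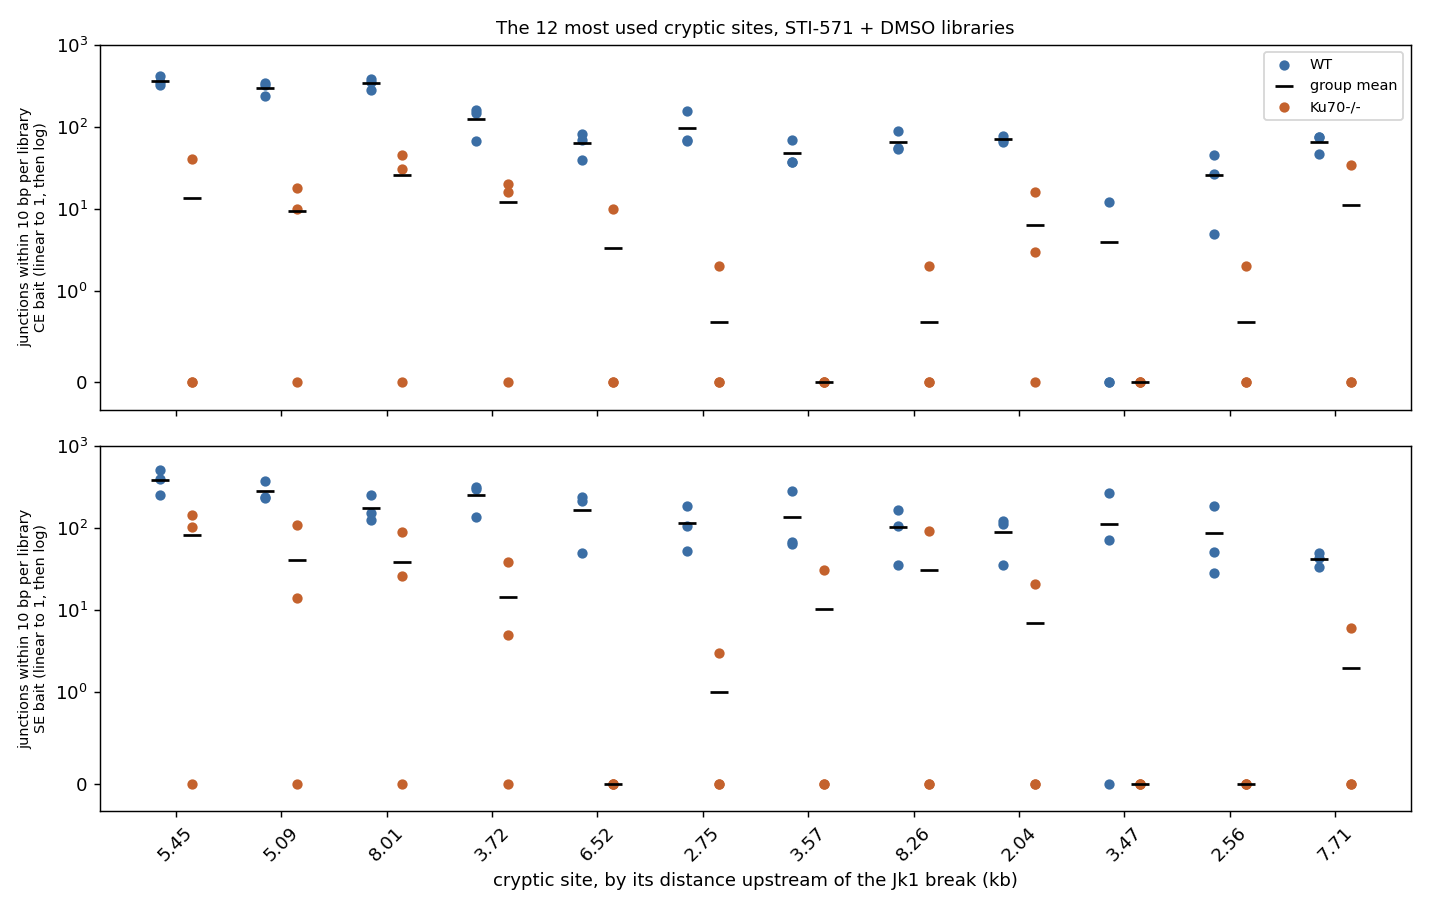
Junctions within 10 bp of each of the 12 most used cryptic sites in STI-571 + DMSO libraries (vertical axis, linear up to 1 and then log), with sites ordered by use and named by their distance in kb upstream of the Jκ1 break. Points are libraries and dashes group means. At the 5.45, 5.09 and 8.01 kb sites all WT libraries lie above all Ku70-/- libraries for both baits.

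In cycling Ku70-/- cells most interval junctions lay next to Jκ1. In the last 2000 bp of the interval, from 2.50 to 0.50 kb upstream of the break, cycling CE libraries had 974, 835 and 1114 junctions, 73.0%, 70.2% and 62.8% of their interval total. WT cycling CE libraries had 0, 6 and 22 there. Ku70-/- DMSO CE libraries had 42, 700 and 572 (5.94%, 41.8% and 48.4%), and WT DMSO CE libraries 180, 275 and 187 (7.99%, 13.3% and 10.3%). From the SE bait the cycling Ku70-/- libraries had 156, 245 and 220 there (65.0%, 67.3% and 75.3%). With DMSO the SE counts were 0, 64 and 240 in Ku70-/- (0%, 8.59% and 20.6%) and 57, 197 and 154 in WT (2.32%, 8.73% and 6.40%), which overlap. The cycling CE junctions were many separate ones, with 86, 86 and 84 distinct junctions in the 3 Ku70-/- cycling CE libraries. In the 3 cycling Ku70-/- CE libraries the deletion orientation made up 2784 of 2923 junctions in this stretch.

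From the SE bait the strand of the prey did not overlap between genotypes. Excision circles made up 99.6% ± 0.58 of WT DMSO SE junctions and 57.4% ± 10.4 of Ku70-/- ones (SD, n = 3 each), a difference of −42.3 percentage points (exact permutation p = 0.1, adjusted p = 0.375 over 30 share comparisons), or 61.0% ± 11.7 over 2 libraries. In cycling Ku70-/- cells 215 of 240, 352 of 364 and 289 of 292 SE junctions were inversion-oriented. From the CE bait deletions were 93.9% ± 2.6 in WT and 82.1% ± 10.7 in Ku70-/- (SD, n = 3 each, exact permutation p = 0.1, adjusted p = 0.375), or 88.3% ± 0.48 over 2 libraries. Hybrid joints, of a coding end with the signal side of a site or the reverse, are those of the other strand within 10 bp of a deletion-oriented site. They numbered 13, 22 and 2 beside 1988, 1753 and 1639 deletion-oriented joints from the WT DMSO CE bait, and 0, 13 and 62 beside 143, 227 and 151 in Ku70-/-. The inversion-oriented 3.47 kb site lies within 10 bp of a deletion-oriented one, so its joints can be counted here as hybrid. It held 6, 22 and 1 CE junctions in the WT DMSO libraries. SE hybrid joints were 0, 2 and 0 in WT and 2, 72 and 100 in Ku70-/-.

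Bait ends were cut back in Ku70-/- joints. With DMSO the bait had lost more than 10 bp in 0.366% ± 0.488 of WT CE joints and 67.5% ± 19.3 of Ku70-/- CE joints (SD, n = 3 each), and in 1.33% ± 1.79 and 72.1% ± 27.9 of SE joints (SD, n = 3 each). Over 2 Ku70-/- libraries the shares were 78.5% ± 4.4 for CE and 58.1% ± 19.8 for SE. The median loss per library was 2, 1 and 1 bp in WT and 6, 22 and 18 bp in Ku70-/- from the CE bait. Ku70-/- cycling CE libraries had median losses of 26, 21 and 21 bp.

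The 2 largest CE pileups found only in Ku70-/- cells were single joints with shared bases. The prey end and the Jκ1 end of each are shown as the + strand of the genome, with the shared bases in capitals.
0.68 kb prey end, chr6:70671859-70671888: caattccaaaggatatgAACcttaacatat
its Jκ1 end, chr6:70672581-70672610: ctggaaatcaAACgtaagtagaatccaaag
0.61 kb prey end, chr6:70671922-70671951: attaaagcaaagaagttCAAatagaaagac
its Jκ1 end, chr6:70672567-70672596: gtggaggcacCAAgctggaaatcaaacgta

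At the 0.68 kb position 330 of 331 junctions in STI-571 libraries were this joint, with Jκ1 cut back by 35 bp and 3 shared bases, and they came from 8 Ku70-/- libraries, with none at this exact position in WT, where 1 L67 library had 6 junctions within 10 bp. The joint at 0.61 kb made up all 254 junctions there, from 7 Ku70-/- libraries, with 21 bp lost at Jκ1 and 3 shared bases. Counting within 10 bp, the cycling Ku70-/- CE libraries held 218, 84 and 44 junctions at the first position and 58, 78 and 159 at the second. From the SE bait the largest such pileup, 3.39 kb upstream, inversion-oriented and next to a CAC, had 396 of 398 junctions as a single joint with 28 bp lost and 2 shared bases. The libraries of a genotype come from the same clone, and whether such repeated joints arose more than once cannot be told apart from shared origin.

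Joint structure was set against Vκ joints of the same libraries, over joints with at most 20 bp of overlap or insertion. Interval joints were taken at any position, and Vκ joints only within 200 bp of a break site. In WT DMSO libraries direct joints, with neither overlap nor insertion, were 40.5% ± 2.7 of interval CE joints and 70.6% ± 0.35 of Vκ CE joints (SD, n = 3 each). Among SE joints they were 58.7% ± 4.1 and 94.7% ± 0.43. Joints sharing 1 bp made up most of the gap, at 30.2% against 12.4% for CE and 32.3% against 2.52% for SE. All 3 libraries of each bait had the lower direct share in the interval (exact sign permutation p = 0.25 each, the smallest for 3 libraries). When each distinct joint was counted once the direct share in the interval was above that at Vκ sites, by 15.6 percentage points for CE and 20.6 for SE. That count merges all joints of a library with the same prey position, strand, bait end and overlap. Repeated direct joints at a site then count once, while varied joints each stay. The shares under this setting thus cannot show which region had more direct joints.

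WT DMSO SE joints shared a base mainly at sites whose sequence before the heptamer repeats the end of the Jκ1 signal, which reads CACTGTG on the + strand up to the break. Of the 20 deletion-oriented sites with at least 10 WT DMSO SE junctions, 5 repeat at least its last base (25.0%), against 2 of 138 Vκ break sites (1.45%). These 2 lists were made differently, so the shares are not on the same footing. Vκ sites came only from SE pileups next to a CAC within 1 bp. The 6.52 and 3.44 kb sites, with 2 shared bases, were listed through the CE bait alone. At the 15 sites without shared bases 96.7% of 3679 SE joints were direct. At the 5 with shared bases 10.4% of 2834 were direct, and in 86.6% the overlap had exactly the length of the shared run. A joint within 10 bp of 2 sites was counted at each, so some joints stand in both classes. The sites were not alike, since the 3.44 kb site (2 shared bases) had 66.3% direct joints and 0% of that overlap, and the 7.71 kb site (1 shared base, in a CA repeat) 49.3% and 47.9%. The values of the 7.71 kb site are over 213 joints, while its own count was 127. They take in joints of the neighbouring 7.70 kb site, which has no shared base. In the sequences above, the 5.45 kb and 3.72 kb sites end their coding side in g, as that signal does, and 99.2% and 92.9% of their SE joints shared 1 bp. The 5.09 kb and 8.01 kb sites end in a, and 99.2% and 98.1% of theirs were direct.

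Longer shared runs were more frequent in Ku70-/- libraries. Microhomology of more than 1 bp was found in 46.0% ± 4.1 of Ku70-/- DMSO CE joints and 10.7% ± 1.8 of WT ones (SD, n = 3 each), a difference of 35.3 percentage points (exact permutation p = 0.1, adjusted p = 0.375). For SE joints the shares were 29.7% ± 9.1 and 7.16% ± 4.1 (SD, n = 3 each, exact permutation p = 0.1, adjusted p = 0.375). The Ku70-/- SE library with 6 interval junctions gave 33.3%, and over the other 2 libraries the share was 27.9% ± 12.15. Cycling Ku70-/- libraries were higher still, at 63.6%, 66.8% and 67.3% for CE and 70.4%, 90.4% and 77.1% for SE. Within Ku70-/- DMSO CE libraries the interval exceeded the Vκ sites, where 15.2% ± 2.9 of joints had more than 1 bp (SD, n = 3, all 3 libraries in the same direction, exact sign permutation p = 0.25). Most of these interval joints lay more than 10 bp from a pileup next to a CAC, while all Vκ joints counted lay within 200 bp of a break site. The interval and Vκ shares are thus not on the same footing. For SE the Vκ share was 20.8% ± 1.2 (SD, n = 3), and the libraries did not all differ in the same direction. Direct CE joints were 22.1% ± 3.4 of Ku70-/- joints (SD, n = 3), a difference of −18.4 points from WT (exact permutation p = 0.1, adjusted p = 0.375), and insertions 7.94% ± 6.51 against 18.6% ± 0.14 (SD, n = 3 each). The insertion shares were 0.424% in the library absent from the tables and 11.8% and 11.6% in the others.

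**Figure D4:**
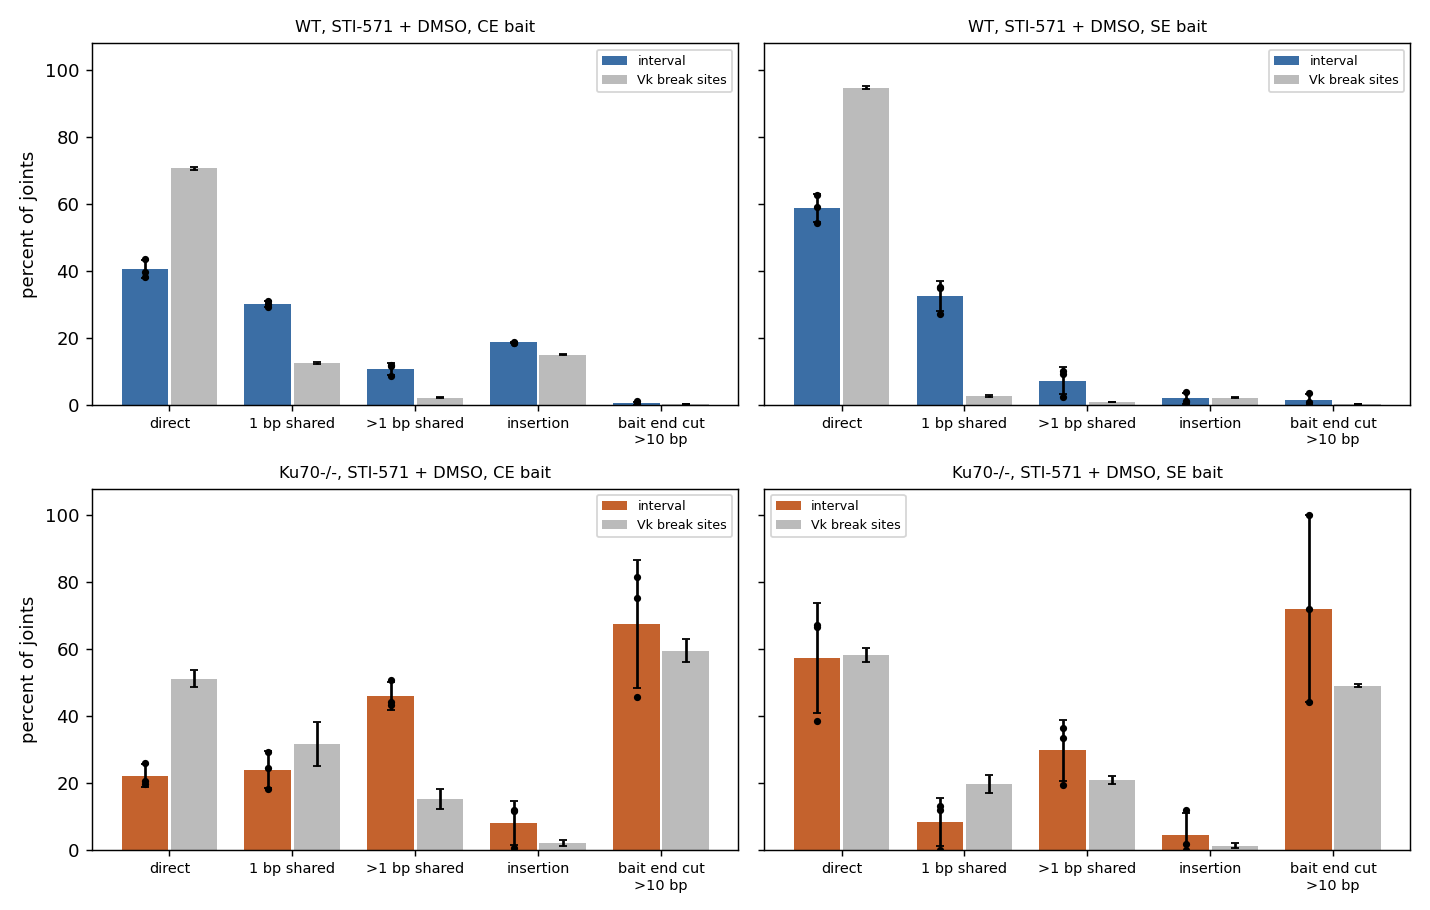
Percent of joints (vertical axis) that were direct, shared 1 bp, shared more than 1 bp, held an insertion, or had lost more than 10 bp of bait end, in STI-571 + DMSO libraries. Coloured bars are interval joints at any position and grey bars joints within 200 bp of Vκ break sites of the same libraries. Error bars are SD over 3 libraries and points the interval values of single libraries. WT interval joints are direct less often than WT Vκ joints, and Ku70-/- interval joints from the CE bait share more than 1 bp in 46.0% against 15.2% at Vκ sites.

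With either ligase inhibitor the Ku70-/- interval counts overlapped those with DMSO. L67 gave CE counts of 1553, 1370 and 1884 and L82-G17 1816, 1452 and 1435, against 707, 1675 and 1181 with DMSO (log2 differences 0.51 ± 0.38 and 0.48 ± 0.38 SE, exact permutation p = 0.3 each, adjusted p = 0.491). Without Ku70-/- DMSO replicate 1 these were 0.18 and 0.15. SE counts were 532, 1056 and 965 with L67 and 1044, 834 and 569 with L82-G17, within the range of 6 to 1165 with DMSO. The log2 differences of 2.16 and 2.12 (exact permutation p = 0.7 each, adjusted p = 0.741) rest on the library with 6 junctions, and without it they were −0.19 and −0.24. In WT cells L67 CE counts, at 2305, 2523 and 2425, all lay above the DMSO ones (log2 difference 0.25 ± 0.10 SE, exact permutation p = 0.1, adjusted p = 0.2). L67 SE counts, at 2901, 2057 and 3131, overlapped those with DMSO (log2 difference 0.16 ± 0.19 SE, exact permutation p = 0.4, adjusted p = 0.514), and so did L82-G17 CE counts, at 2118, 1863 and 2285 (log2 difference 0.03 ± 0.13 SE, exact permutation p = 0.7, adjusted p = 0.741). Relative to recovered junctions these L82-G17 CE libraries lay above the DMSO ones, at 1.096%, 0.9995% and 1.07% against 0.584%, 0.558% and 0.489% (log2 difference 0.96 per recovered and 0.97 per Vκ junction, exact permutation p = 0.1 each). L82-G17 SE counts, at 1870, 2074 and 1822, all lay below the DMSO ones (log2 difference −0.31 ± 0.07 SE, exact permutation p = 0.1, adjusted p = 0.2). The L82-G17 SE libraries recovered 130487 to 145581 junctions in all, against 339201 to 352630 with DMSO, and the interval made up a larger percent of them, at 1.29%, 1.59% and 1.36% against 0.696%, 0.666% and 0.709%. The inhibitor effects on the count were not shown to differ between genotypes, with exact permutation p from 0.34 to 0.775 over 4 tests and adjusted p from 0.72 to 0.775.

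Among 1 kb bins across the locus, a limma fit on log2(junctions + 1) tested 218 bins for the CE bait and 228 for the SE bait, of which 10 and 9 have their centre in the interval. With arrest in WT cells 5 of 10 interval bins rose from the CE bait and 9 of 9 from the SE bait, where 64.7% and 62.3% of all bins were called at an adjusted p under 0.05. The interval medians were 2.76 and 6.79 on the log2 scale against 3.33 and 3.44 over all bins. Bins were kept on their mean over all libraries of a bait, most of them arrested. All 9 interval SE bins had WT cycling means of 3.67 or less, below the filter of 5. The CE bins at 3.06 and 1.06 kb had means of 4 and 0. Such bins entered through other libraries, so these rises are a description. The bin centred 3.06 kb from the break went from a mean of 4 to 177.7 CE junctions (log2 difference 5.71 ± 1.15 SE, adjusted p = 0.000215). With arrest in Ku70-/- cells 1 interval bin rose and 1 fell from the CE bait, and 4 rose and 1 fell from the SE bait. Over all bins 66.1% and 56.1% were called in either direction. The SE bins at 8.06, 6.06 and 5.06 kb that rose had Ku70-/- cycling means of 0.333, 0 and 0, below the filter. They too entered through other libraries, so their rises are a description. For both baits the only bin that fell was that at 1.06 kb. Its mean went from 742.3 to 308.7 for CE (limma, adjusted p = 0.0247) and from 100.3 to 64 for SE (limma, adjusted p = 0.0321). Neither call held without Ku70-/- DMSO replicate 1, where the means with DMSO were 446 and 96 (limma, adjusted p = 0.204 and adjusted p = 0.214), and the CE and SE bins that rose were then 2 and 4, with 69.4% and 63.8% of all bins called in that fit.

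With DMSO, Ku70-/- was lower than WT in 3 of 10 interval bins from the CE bait and in 7 of 9 from the SE bait. None was higher. Over all bins 113 of 218 were lower and 43 higher for CE, and 73 of 228 lower and 25 higher for SE. In either direction 71.6% and 43.0% were called. The SE bins at 9.06 and 7.06 kb had Ku70-/- DMSO means of 0 and 1, beside 20 and 28 in WT. Those Ku70-/- means lie below the filter of 5, and the bins entered through other libraries, so their calls are a description. The bin at 8.06 kb, which holds the 8.01 kb site, had means of 594 in WT and 125 in Ku70-/- for CE (log2 difference −4.28 ± 1.25 SE, adjusted p = 0.00707) and of 493 and 93.3 for SE (log2 difference −4.27 ± 1.29 SE, adjusted p = 0.0159). Without Ku70-/- DMSO replicate 1 the log2 differences were −1.81 ± 0.55 for CE (SE, limma, adjusted p = 0.00726) and −1.94 ± 0.79 for SE (SE, limma, adjusted p = 0.0649). Without it 3 CE bins were lower and 2 higher in Ku70-/-, among them the 1.06 kb bin, with means of 113.7 in WT and 446 in Ku70-/- (log2 difference 2.02 ± 0.50 SE, limma, adjusted p = 0.00175), and 3 SE bins were lower, with 69.4% and 34.9% of all bins called in that fit. The 9.06 kb bin was among those 3 SE bins. No interval bin was called with L67 or L82-G17 in either genotype or bait by limma. In CE libraries without Ku70-/- DMSO replicate 2, 4 of 10 interval bins were called with L67 in Ku70-/-, where 24.8% of all bins were, and 2 of 10 with L82-G17, where 6.42% were. Over all bins the calls with L67 were 3.21% in Ku70-/- and 0% in WT for CE and 0% and 0.877% for SE, and with L82-G17 0.917% and 2.75% for CE and 0% and 5.26% for SE. At an unadjusted p under 0.05 the interval had 2 bins with L67 in Ku70-/- for each bait, 2 with L82-G17 in Ku70-/- for CE and 1 in WT for CE, and 0 in the other 4 comparisons.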

How the data were processed

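The authors aligned HTGTS-JoinT-seq read pairs to mm9 with Bowtie2, scaled every library to 500000 read pairs and deposited lists of junctions that give position, strand and bait and prey alignment coordinates, with no count column. Junctions were counted here from those deposited coordinates, and overlap was the number of read bases that bait and prey alignments share. Duplicates were not removed by the authors and copies were kept, and PCR copies without molecular identifiers are not independent. The interval and all lists were chosen with earlier results of these data known. Groups came from the sample labels, and replicate numbers only name libraries. Libraries were the unit of exact permutation tests (two-sided, Benjamini-Hochberg adjustment) of counts, as log2(junctions + 1), and of shares, and 1 kb bins (mean of 5 or more junctions) by limma 3.58.1 in R 4.3.3, which was tested on simulated data. Pileups named were the 10 largest of each bait and all next to a CAC, and bins the 3 largest changes of a contrast. The 1.06 kb SE bin was named outside that rule, as the only one that fell. Sequences were read from the NCBIM37 genome (mm9). Windows were mapped with minimap2 2.31-r1302. Alternatives are given at the end.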

Additional observations from a re-analysis of the deposited data

Results flagged for a closer look

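A difference between genotypes in the effect of arrest passed the threshold in 1 of 2 baits. The estimated effect of arrest on the CE bait interval count was 2.81 on the log2 scale in WT and −0.34 in Ku70-/-, a difference of −3.15 (exact two-sided permutation of treatment labels within genotype, p = 0.02, adjusted p = 0.04 over 2 baits). All 3 WT DMSO libraries lay above all 3 cycling ones, and the Ku70-/- groups overlapped. The permutation is exact for no effect of arrest in either genotype, not for equal effects in both, so it cannot alone show that the effects differ. This test was added after the data were seen and was adjusted apart from the inhibitor tests. Adjusted together with them, it would not pass 0.05. It no longer passed 0.05 with distinct junctions counted once (−3.71, exact permutation p = 0.05), with both ends trimmed (−2.41, exact permutation p = 0.08), per 500000 recovered junctions (−2.84, exact permutation p = 0.1) or per 500000 Vκ junctions (−3.63, exact permutation p = 0.1), and without Ku70-/- DMSO replicate 1 it was −2.82 (exact permutation p = 0.045).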

How the results depend on the processing

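Among values recomputed under other settings, 646 were counted as the same, 68 turned sign, 13 passed the threshold only under the alternative (or gave over 1.5 times as many bins) and 13 no longer passed (or gave fewer). For comparisons of counts or shares between 2 groups the same meant the same sign, since no p there can fall below 0.1. For bins it meant a number within 1.5 times. The cause of these changes was not tested. No paired analysis was possible because the labels give no numbers that link libraries of different groups, and the replicate numbers used here follow accession order; comparisons of interval and Vκ joints are within libraries. Differences of counts are on the log2 scale and those of shares in percentage points.

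Per 500000 recovered junctions and per 500000 Vκ junctions, the WT arrest difference from the CE bait became −0.92 and −0.98, Ku70-/- against WT with DMSO (CE) 0.50 and 0.88, L82-G17 in WT (SE) 1.03 and 1.06, the difference between genotypes in the CE effect of L67 −0.030 and −0.032 and of L82-G17 −0.35 and −0.48, and in the effect of arrest −2.84 and −3.63 for CE (no longer past 0.05) and −9.56 and −10.79 for SE (past it). With distinct junctions counted once, SE against CE in WT DMSO was −2.08, Ku70-/- arrest (SE) 0.51 and the CE arrest difference between genotypes −3.71 (no longer past 0.05). In shares, the same setting gave insertions of −2.82 (L82-G17, Ku70-/-, CE), −22.3 (Ku70-/- against WT, SE) and 3.40 (L82-G17, Ku70-/-, SE), and pileup shares of 2.74 (L82-G17, CE) and 0.87 (L67, SE) in Ku70-/-. For the interval minus Vκ sites it gave direct joints of 15.6 (WT CE), 20.6 (WT SE) and 3.47 (Ku70-/- SE), microhomology of −3.75 (WT SE) and insertions of −35.6 (WT CE), −1.81 (Ku70-/- CE) and −13.4 (Ku70-/- SE). Without 1000 bp at both ends of the interval, Ku70-/- arrest (CE) was 0.32, the CE arrest difference between genotypes −2.41 (no longer past 0.05), the CE L67 difference between genotypes −0.058, the L67 orientation share in Ku70-/- (SE) 2.05, the SE direct share of Ku70-/- against WT 1.94, SE insertions −0.98 for Ku70-/- against WT and 1.39 for L82-G17 in Ku70-/-, and the L82-G17 pileup share in Ku70-/- (CE) 1.53. With microhomology of 1 bp or more, Ku70-/- against WT (SE) was −1.41 and L67 in Ku70-/- (SE) 14.8.

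Leaving out 1 library at a time gave these ranges where a sign or call changed. Counts: L82-G17 in WT (CE) −0.051 to 0.113, turned without WT DMSO or WT L82-G17 replicate 3, and Ku70-/- arrest (SE) −2.03 to 1.66, L67 and L82-G17 in Ku70-/- (SE) −0.19 to 3.50 and −0.24 to 3.46, these 3 turned without Ku70-/- DMSO replicate 1. Differences between genotypes were −0.072 to 0.55 (L67, CE), −0.35 to 3.34 (L67, SE) and −10.21 to −6.52 (arrest, SE), the last past 0.05 without Ku70-/- DMSO replicate 2 or 3. Orientation with L67 in Ku70-/- was −2.42 to 7.04 (CE) and −5.33 to 4.74 (SE), and with L82-G17 −0.14 to 9.32 (CE). Direct joints were −1.46 to 2.67 (L67, Ku70-/-, CE) and −6.12 to 8.19 (Ku70-/- against WT, SE). Microhomology was −4.54 to 0.20 (L67, CE), −2.52 to 1.51 (L82-G17, CE) and −8.15 to 3.23 (L67, SE) in Ku70-/-. Insertions were −0.15 to 5.52 (L82-G17, Ku70-/-, CE), −0.94 to 4.94 (Ku70-/- against WT, SE) and −3.36 to 2.53 (L82-G17, Ku70-/-, SE). Pileup shares in Ku70-/- were −3.84 to 0.98 (L82-G17, CE), −19.3 to 9.18 (L67, SE) and −13.1 to 15.4 (L82-G17, SE). Interval minus Vκ sites was −1.09 to 0.24 (insertions, WT SE), −6.41 to 8.34 (direct, Ku70-/- SE) and −0.36 to 5.09 (insertions, Ku70-/- SE).

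Interval bins called with arrest in Ku70-/- were 1 (no filter) and 0 (distinct) for CE and 3 and 3 for SE. Ku70-/- against WT gave 5 (distinct) for CE, and 3 (no filter), 4 (2 kb bins) and 1 (distinct) for SE. Without each Ku70-/- DMSO replicate, Ku70-/- against WT gave 4 to 5 (CE) and 3 to 8 (SE), arrest in Ku70-/- 2 to 3 (CE) and 3 to 5 (SE), L67 in Ku70-/- 0 to 4 (CE) and 0 to 1 (SE), and L82-G17 0 to 2 (Ku70-/-, CE), 0 to 1 (WT, CE) and 0 to 1 (Ku70-/-, SE).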
